A study of Mus musculus with 6 samples.

Results

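Proteasome subunit, activator and assembly genes were taken as the genes whose symbols begin with Psma, Psmb, Psmc, Psmd, Psme, Psmf or Psmg followed by a digit. The rule matched 49 of the 23284 listed genes, and 45 of these had a mean of at least 1 FPKM (reads scaled by transcript length and library total) and entered the test. One match, Psmc3ip, encodes a partner of meiotic recombinases and not a proteasome subunit. The other matches fell into 7 alpha and 7 constitutive beta subunits of the 20S core, 5 tissue-restricted core subunits, 9 genes of the 19S base, 8 of the 19S lid, 5 activators or inhibitors and 7 assembly chaperones.

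Poly(A) RNA of whole C57BL/6 mouse hearts at E13.5 was sequenced in 3 Tfam KO and 3 Control libraries, each a pool of 5 frozen hearts. Tfam KO embryos carried 2 floxed Tfam alleles and Controls carried 1, next to a wild-type allele. Both groups had 1 copy of a Cre knocked into the Nkx2-5 locus, so both carry that insertion, and deletion is limited to the cardiac lineage of Nkx2-5. Heart cells outside that lineage keep their Tfam alleles, and a level in bulk tissue cannot tell fewer cells of a type from less RNA per cell.

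The proteasome degrades proteins tagged with ubiquitin. Its 20S core is a barrel of alpha and beta rings with the proteolytic sites inside, and the 19S particle, made of a base with an ATPase ring and a lid, recognises, unfolds and feeds in the substrate. In mammalian cells with impaired proteasomes, the transcription factor NRF1 (gene Nfe2l1) raises most subunit genes together, and interferon gamma induces an alternative set of core subunits. The heart depends on this system for the turnover of its contractile proteins.

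The libraries held 12370092 to 18078620 recovered reads. The rRNA gene Rn45s took 3185925, 4309718 and 2498571 reads in KO and 4525770, 3910108 and 5019014 in Control hearts. Its part in the scale of the libraries was not tested. The libraries differed in overall scale, with size factors from 0.812 to 1.33, so values below are FPKM divided by the size factor. Over all genes tested, the median log2 fold change came to 0.00 on this scale and 0.28 as deposited. Tfam itself stood at 3.41, 5.17 and 4.69 scaled FPKM in KO and at 5.71, 6.43 and 6.60 in Control hearts. The groups did not overlap, with a log2 fold change of -0.43 (SE 0.15, limma adjusted p = 0.14). The count includes exons outside the floxed part and cells outside the Cre lineage. Control hearts also carry 1 floxed allele together with the Cre. For these reasons Tfam is a weak check of the labels. The 6 cardiomyocyte markers were expressed in all 6 libraries. Their summed level ran from 3034 to 5468 scaled FPKM in KO and from 4629 to 5967 in Control hearts, and 5 of 6 had log2 fold changes below 0. Nkx2-5, whose locus carries the Cre, was the 1 that passed the test (log2 fold change -0.93, limma adjusted p = 0.0388, and -0.61 with adjusted p = 0.0787 as deposited). It did not pass when Tfam KO replicate 1 or any of Control replicates 1, 2 and 3 was left out (adjusted p = 0.0648, 0.108, 0.0532 and 0.0986), nor without a filter on low values (0.127). Before adjustment 3 cardiomyocyte markers were lower and 0 higher with p under 0.05. They were Nkx2-5 and, chosen after their values were seen, the myosin heavy chain gene Myh7 (log2 fold change -0.65, limma adjusted p = 0.137, and 0.0404 by limma-voom on reads) and the Z-disc gene Actn2 (-0.30, adjusted p = 0.246, and 0.04 as deposited). On the size-factor scale all 3 had KO values below all Control values. None of the 6 endothelial, 6 epicardial, 6 fibroblast or 5 tested erythroid markers passed by limma (before adjustment, 1, 0, 2 and 0 were higher and 0 lower with p under 0.05). In the same order, 3, 2, 5 and 0 had log2 fold changes above 0, with medians of -0.02, -0.03, 0.24 and -0.45. The erythroid sum ran from 3337 to 10188 scaled FPKM in KO and from 6250 to 12962 in Control hearts, with Hba-a1 listed at 0 throughout. The part of cell makeup in the values below was not tested.

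No proteasome gene passed the test in Tfam KO hearts. Of the 45 tested, 0 were higher and 0 lower by limma, against 1.99% called higher and 2.6% called lower among all 10807 tested genes. With p under 0.05 before adjustment, 5 members were higher and 4 lower, or 11.1% and 8.89% of them, against 8.49% and 11.0% of all tested genes. By limma-voom on recovered reads 0 were higher and 1, Psmb4, was lower. As deposited 1, Psmc2, was higher and 0 lower, where 6.21% of all genes were called higher.

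The fold changes were small as well as uncalled. All 45 log2 fold changes lay between -0.47 and 0.39, within 0.5 of 0, as did 91.6% of the 8412 tested genes in the same range of expression. Their median was 0.06. The 95% intervals of single genes reached from -0.73 to 0.66 at most, and all 45 stayed inside a 2-fold change in either direction on this scale. Of these intervals, 36 held 0. The direction was mostly upward among the 31 constitutive core and 19S genes, with 22 above 0 (71.0%, against 50.4% of all tested genes) and a median log2 fold change of 0.07. The median deviation of these genes from their level over all libraries was 0.074, 0.002 and 0.017 in the KO libraries. It was -0.017, 0.005 and -0.084 in the Control libraries, so the groups overlapped. Whether these genes vary independently was not tested. In 9 of these 31 every KO library lay above every Control library (29.0%, against 11.8% of all tested genes), and in 3 every KO library lay below (9.68%, against 12.2%). In the same range of expression as these 31 genes, 89 of 3125 genes were called higher (2.85%).

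**Figure D1:**
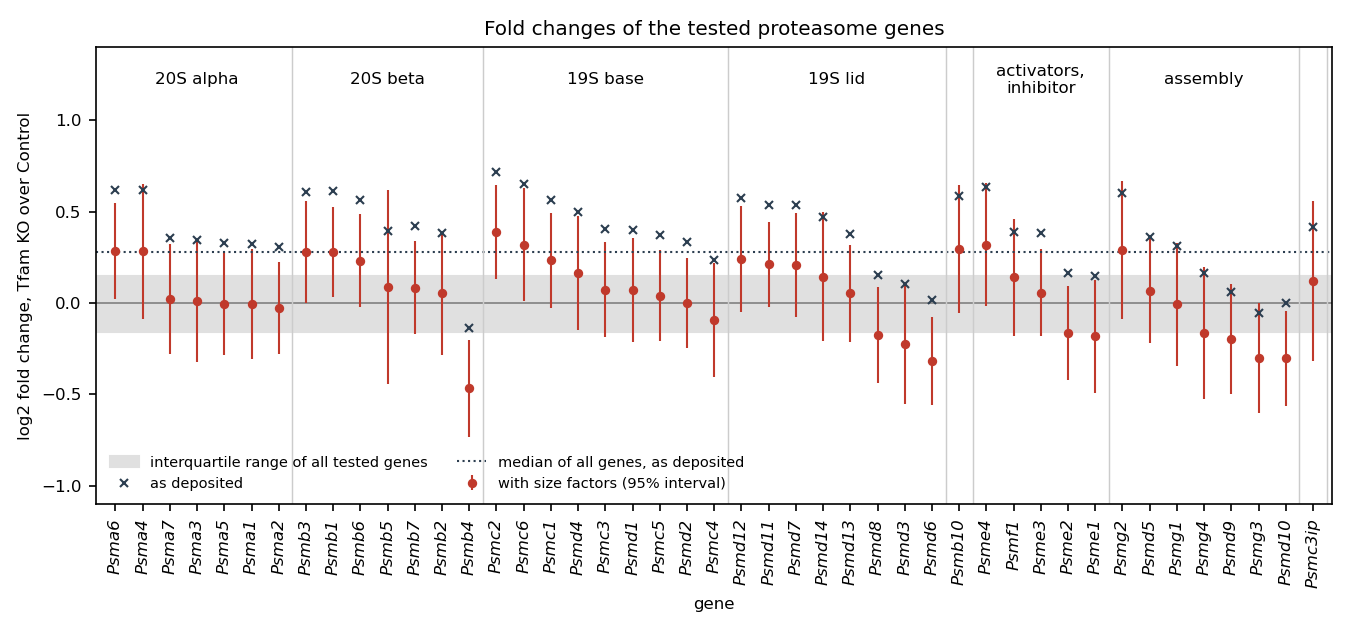
Log2 fold change (Tfam KO over Control, log2(FPKM + 1) scale) of the 45 tested genes by class, with size factors (circles, bars are 95% intervals) and as deposited (crosses); the grey band is the interquartile range of all tested genes and the dotted line their median as deposited. All circles lie between -0.47 and 0.39, with Psmb4 lowest and Psmc2 highest.

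Most of the alpha subunits, which form the outer rings and the gate of the core, were nearly level between genotypes. Psma1, Psma2, Psma3, Psma5 and Psma7 had log2 fold changes between -0.03 and 0.02. Psma6 was at 59.8, 56.1 and 63.2 scaled FPKM in KO and at 45.9, 54.3 and 46.5 in Control hearts. All KO values were above all Control values, by a narrow gap, for a log2 fold change of 0.29 (SE 0.12, limma adjusted p = 0.219). Psma4, whose tail is the centre of the closed gate in yeast, was at 90.5, 108 and 137 in KO and at 78.3, 100.1 and 94.0 in Control hearts. Its groups overlapped, with Tfam KO replicate 3 the highest (log2 fold change 0.28, SE 0.17, adjusted p = 0.40). Psma2 had the lowest log2 fold change of the ring, with 43.1, 37.7 and 43.8 in KO and 42.9, 43.4 and 40.6 in Control hearts (-0.03, SE 0.11).

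The beta subunits form the inner rings, and 3 of them carry the proteolytic sites. Psmb5, the chymotrypsin-like subunit, was the lowest constitutive core gene at 14.5, 8.66 and 7.36 scaled FPKM in KO and 11.8, 6.77 and 9.50 in Control hearts. Its values scattered widely within both groups (log2 fold change 0.09, SE 0.24), on 63 to 185 reads per library. Psmb6, the caspase-like subunit, was at 52.8, 49.4 and 43.7 in KO and at 42.7, 40.5 and 40.3 in Control hearts. Psmb7, the trypsin-like subunit, was at 96.0, 87.2 and 86.1 in KO and at 87.0, 87.5 and 79.6 in Control hearts. The Psmb6 groups were apart (log2 fold change 0.23, limma adjusted p = 0.309) and those of Psmb7 overlapped (0.08, adjusted p = 0.76). Psmb3, a subunit with no active site, had the highest log2 fold change of the ring, with 41.7, 32.7 and 35.4 in KO and 30.5, 31.4 and 27.7 in Control hearts (0.28, SE 0.13, adjusted p = 0.255). Psmb1 was nearly equal to it (0.28, SE 0.11, limma adjusted p = 0.205), with all KO values above all Control values.

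Psmb4 went the other way and came nearest to the threshold of all members. This subunit has no active site and, in yeast, its tail helps core precursors to join. It was at 35.3, 30.4 and 33.2 scaled FPKM in KO and at 50.4, 42.3 and 45.2 in Control hearts. Every KO value was below every Control value. The means were 33.0 ± 2.48 and 46.0 ± 4.10 (SD, n = 3 each), with a log2 fold change of -0.47 (SE 0.12, 95% interval -0.73 to -0.20, limma adjusted p = 0.0544). It passed by limma-voom on reads (adjusted p = 0.046) and among genes of at least 5 FPKM (adjusted p = 0.0441). As deposited its log2 fold change was -0.14 (adjusted p = 0.686). A ratio within a library is free of the scaling, and this one was chosen after its values were seen. Psmb4 over the median of the other 6 constitutive beta genes was 0.702, 0.666 and 0.811 in KO and 1.25, 1.09 and 1.20 in Control hearts. This ratio was lower in every KO library than in every Control library. The other 6 genes all had log2 fold changes above 0, so the gap in the ratio is not that of Psmb4 alone.

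**Figure D2:**
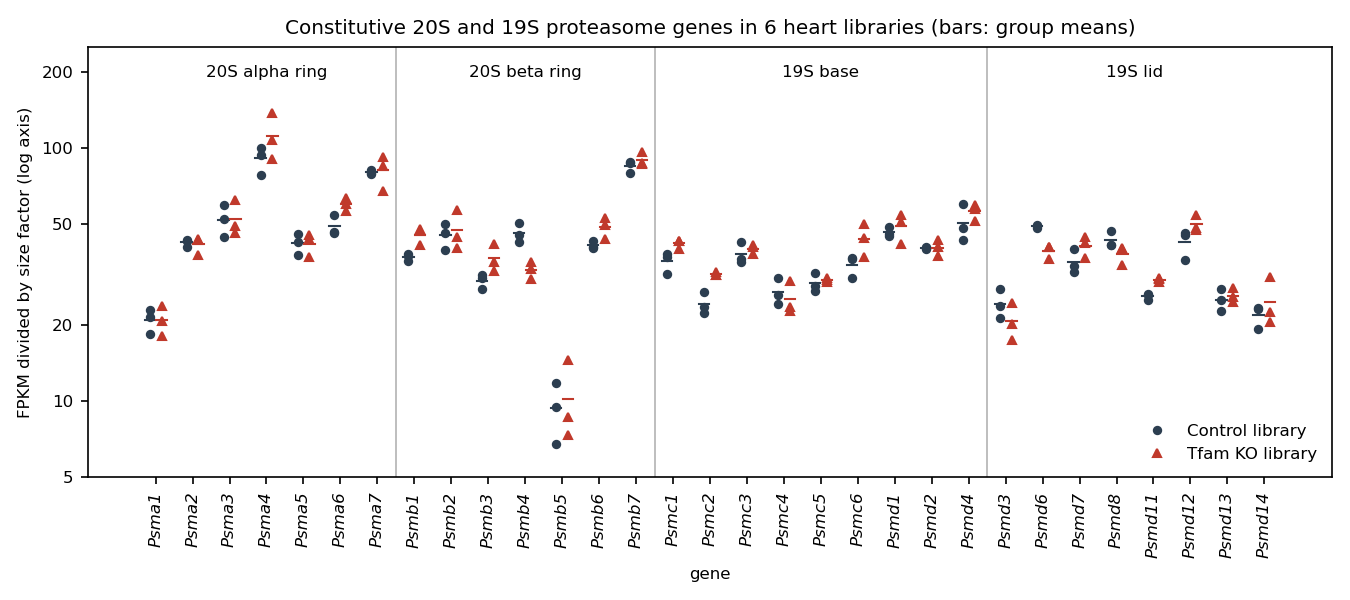
FPKM divided by size factor (log axis) of the 31 constitutive core and 19S genes in each library, circles for Control and triangles for Tfam KO, with bars at group means. Psmb5 sits lowest and Psma4 and Psmb7 highest in both genotypes, and the points of most genes intermingle.

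The transcripts of the core were far from equal in level although each subunit is built into the particle in the same number. On the per-length scale, Control means ran from 9.35 ± 2.50 scaled FPKM for Psmb5 over 20.9 ± 2.23 for Psma1 to 84.7 ± 4.41 for Psmb7 and 90.8 ± 11.2 for Psma4. The last 2 did not differ beyond their spread. RefSeq lists 6 pseudogenes named after members, among them copies of Psmb5, Psmb6 and Psmb7, and how reads shared with such copies were counted is not given in the sources used here.

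The tissue-restricted core subunits were close to absent in both genotypes, except for Psmb10. Psmb8 and Psmb9 replace Psmb5 and Psmb6 in the immunoproteasome, which cuts peptides suited to antigen presentation. Psmb8 was at 0.392, 0.257 and 0.295 scaled FPKM in KO and at 0.651, 0.306 and 0.632 in Control hearts, on 4 to 14 reads. Psmb9 was at 0.340, 0.195 and 0.168 in KO hearts. In the Controls it was at 0.549 in replicate 1 and had 0 reads in replicates 2 and 3. The groups of both genes overlapped, and neither entered the test. Psmb11, the beta subunit of the thymic cortex, stood on 4 to 8 reads and Psma8, the testis counterpart of Psma7, on 5 to 17 reads in a library. Both were under the filter, with overlapping groups.

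Psmb10, the immunoproteasome counterpart of Psmb7, was at 5.33, 6.25 and 5.94 scaled FPKM in KO and at 5.64, 4.87 and 3.43 in Control hearts. The groups overlapped, for a log2 fold change of 0.29 (SE 0.16, limma adjusted p = 0.351). Within a library the ratio of Psmb10 to Psmb7 was 0.0654 ± 0.00862 in KO and 0.0545 ± 0.0109 in Control hearts (SD, n = 3 each). The ratio of Psmb8 to Psmb5 was lower in every KO library than in every Control library, at 0.0269, 0.0297 and 0.0401 against 0.0553, 0.0452 and 0.0665, on the few Psmb8 reads given above. That of Psmb9 to Psmb6 overlapped, at 0.00643, 0.00395 and 0.00384 in KO and 0.0129, 0 and 0 in Control hearts. Macrophage and leukocyte markers, which mark cells known for immunoproteasomes, summed to 9.96 to 12.6 scaled FPKM in KO and 8.25 to 12.2 in Control hearts over 8 genes. Of the 8, 6 were tested and 0 passed (before adjustment, 1 was higher and 0 lower with p under 0.05), and their part in the Psmb10 values was not tested.

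**Figure D3:**
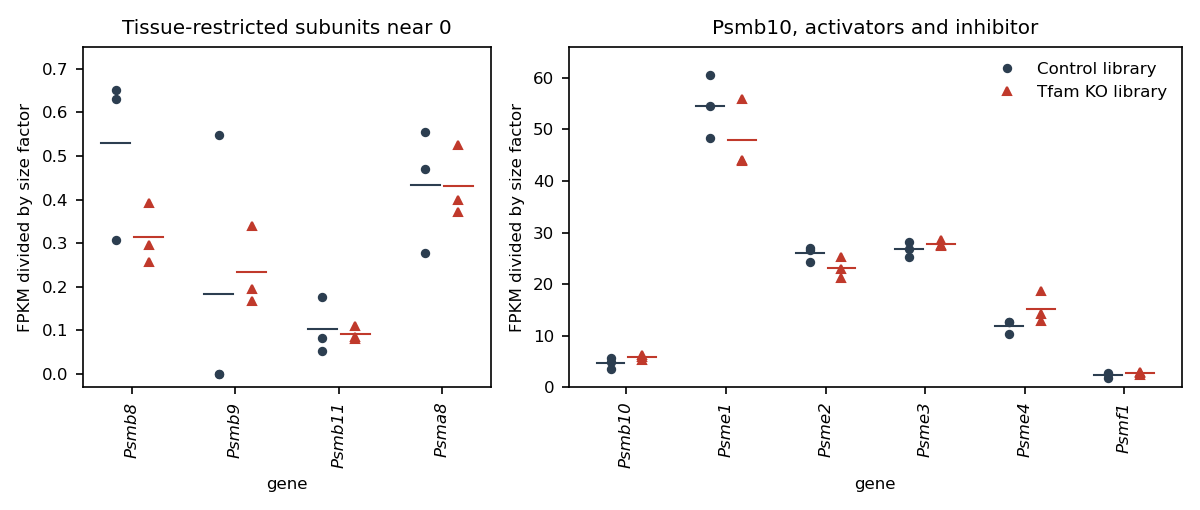
FPKM divided by size factor (linear axes) in each library for the tissue-restricted core genes under the filter (left) and for Psmb10, the activators and the inhibitor (right), circles for Control and triangles for Tfam KO, with bars at group means. The left panel stays under 0.66, and in it both Control zeros are of Psmb9.

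The 19S base unfolds the substrate with 6 ATPases, Psmc1 to Psmc6, and holds the scaffold and ubiquitin-binding genes Psmd1, Psmd2 and Psmd4. Of its 9 genes 7 had log2 fold changes above 0, with a median of 0.07. Psmc2 had the highest log2 fold change of all members, with 31.6, 32.4 and 31.5 scaled FPKM in KO and 23.4, 27.0 and 22.2 in Control hearts. The groups were clearly apart and the KO values almost identical. Its log2 fold change was 0.39 (SE 0.12, 95% interval 0.13 to 0.64), with a limma adjusted p = 0.0913 here and 0.0328 as deposited. Over the median of the other 8 base genes, a ratio chosen after its values were seen, Psmc2 was at 0.754 to 0.786 in the KO and at 0.609 to 0.724 in the Control libraries. Psmc6 and Psmc1 also had KO values above all Controls, with log2 fold changes of 0.32 and 0.23 (adjusted p = 0.239 and 0.309). Psmc4 had the lowest log2 fold change of the base, with 29.8, 22.7 and 23.5 in KO and 30.6, 26.3 and 24.2 in Control hearts (-0.10, SE 0.14, overlapping groups).

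The lid genes, which include the deubiquitinase Psmd14, were split. Psmd12, a scaffold subunit, had the highest log2 fold change, with 47.4, 48.2 and 54.5 scaled FPKM in KO and 36.0, 45.9 and 45.0 in Control hearts (0.24, SE 0.13, limma adjusted p = 0.353). Psmd11, a scaffold subunit too, was at 29.4, 30.3 and 30.6 in KO and at 25.0, 26.5 and 26.1 in Control hearts. Both genes had KO values above all Controls. Psmd6, another scaffold subunit, had the lowest log2 fold change of the lid, with 40.6, 36.3 and 40.4 in KO and 48.1, 49.5 and 49.0 in Control hearts. Its groups were apart by more than the range of either, at -0.32 (SE 0.11, adjusted p = 0.14), and 0.02 as deposited. Psmd8 was below all Controls too, by a narrower gap (-0.18, adjusted p = 0.464). Psmd14 had a log2 fold change of 0.14 with overlapping groups. Ratios of summed genes within a library were formed after the values of the members were seen. The summed base genes over the summed lid genes came to 1.29 to 1.35 in KO and 1.16 to 1.28 in Control hearts, a narrow gap. The summed 19S over the summed constitutive core genes overlapped, at 0.840 to 0.908 in KO and 0.859 to 0.915 in Control hearts.

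The extremes of the family, Psmc2 and Psmb4, are shown with 250 bases before their start, to let their promoters be compared (RefSeq, GRCm38.p6, 5′ to 3′ on the gene's strand, matches to the motifs described below in capitals). For Psmc2 this is the first of 2 listed starts.
Psmc2, chr5:21785025-21785274, plus strand: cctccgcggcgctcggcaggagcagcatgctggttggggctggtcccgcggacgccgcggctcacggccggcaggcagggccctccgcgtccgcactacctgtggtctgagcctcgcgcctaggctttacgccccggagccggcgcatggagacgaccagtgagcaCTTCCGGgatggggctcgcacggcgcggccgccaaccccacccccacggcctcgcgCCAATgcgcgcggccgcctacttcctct
Psmb4, chr3:94886959-94887208, minus strand: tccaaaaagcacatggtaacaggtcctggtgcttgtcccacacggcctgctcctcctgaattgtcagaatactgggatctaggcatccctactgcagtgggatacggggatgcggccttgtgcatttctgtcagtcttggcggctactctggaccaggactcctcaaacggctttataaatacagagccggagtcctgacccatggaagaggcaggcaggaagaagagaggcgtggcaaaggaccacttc
The Psmc2 stretch holds an ETS core and a CCAAT box and is 74.4% G and C. The Psmb4 stretch holds 0 of the motifs searched and is 54.4% G and C. The 250 bases before the other listed start of Psmc2, not shown, hold an ETS core and no CCAAT box. They are 53.6% G and C, so the contrast with Psmb4 depends on the start chosen.

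The activators open the core without ATP, and Psmf1 was named as an inhibitor of it. Psme1 and Psme2 form one ring activator, which interferon gamma induces with the immunoproteasome. Psme1 was at 44.1, 56.0 and 43.8 scaled FPKM in KO and at 60.6, 48.3 and 54.5 in Control hearts, and Psme2 at 25.2, 21.2 and 22.9 against 26.6, 27.0 and 24.2. Both were thus well expressed where Psmb8 and Psmb9 were not, with overlapping groups and log2 fold changes of -0.18 and -0.16 (limma adjusted p = 0.532 and 0.496). Psme3, the nuclear ring activator, was at 27.4, 28.6 and 27.6 in KO and at 28.3, 26.8 and 25.3 in Control hearts, a log2 fold change of 0.06 (SE 0.11). Psme4, a large single-chain activator, had the highest log2 fold change of the class, with 12.9, 14.1 and 18.7 in KO and 10.4, 12.7 and 12.6 in Control hearts. Its lowest KO value was just above the highest Control value (0.32, SE 0.15, adjusted p = 0.285). Psmf1 was low, between 1.84 and 2.92 in the 6 libraries.

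Of the 7 assembly chaperones, 5 had log2 fold changes below 0 and the median was -0.17, while the median of the base genes was 0.07. Whether classes differ was not tested. Psmd10, which holds an ATPase of the base during assembly, had the lowest log2 fold change, with 7.05, 7.39 and 7.50 scaled FPKM in KO and 8.68, 8.81 and 10.3 in Control hearts. The groups were apart (log2 fold change -0.30, SE 0.12, limma adjusted p = 0.187). Psmg3, which helps to form the alpha ring, was at 2.20, 1.59 and 2.15 in KO and 2.53, 2.68 and 2.76 in Control hearts, on 17 to 42 reads (-0.30, adjusted p = 0.256). Its groups were apart as well. Psmg2, the partner of Psmg1 in alpha ring assembly, had the highest log2 fold change of the class, with 15.6, 13.1 and 11.5 in KO and 11.2, 13.1 and 8.34 in Control hearts. These groups overlapped (0.29, SE 0.17, adjusted p = 0.396). Psmd5, Psmd9, Psmg1 and Psmg4 overlapped between genotypes, with log2 fold changes from -0.20 to 0.06. Psmc3ip, the match that is no subunit, was at 7.60, 8.49 and 5.25 in KO and 7.91, 4.72 and 6.75 in Control hearts (0.12, SE 0.20).

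Among 5 lists of genes around the proteasome that the symbol rule leaves out, Mafg and H2-K1, described below, passed the test, both higher. Over all tested genes 1.99% were called higher, and the share in these short lists was not tested against it. Of 9 partners, 0 passed by limma in either direction (before adjustment, 1 was higher and 1 lower with p under 0.05). Pomp, the maturation factor of the core, was at 41.8, 38.4 and 39.7 scaled FPKM in KO and 44.9, 45.7 and 38.6 in Control hearts, a log2 fold change of -0.10 (SE 0.12). Adrm1, a ubiquitin receptor of the base, was chosen after its values were seen. It was at 19.3, 16.2 and 13.7 in KO and at 30.3, 21.4 and 26.4 in Control hearts, apart between groups (log2 fold change -0.64, limma adjusted p = 0.0518, and -0.31 as deposited). It passed by limma-voom on reads (0.0207), among genes of at least 5 FPKM (0.0434), and without Tfam KO replicate 1 or Control replicate 2 (0.0375 and 0.027). It did not pass without Tfam KO replicate 2 or 3 (0.14 and 0.155) or without Control replicate 1 or 3 (0.155 and 0.173). Nor did it pass without a filter on low values (0.126). AI314180, the mouse symbol for the proteasome adaptor ECM29, chosen likewise, was at 14.5, 15.3 and 18.0 against 10.2, 12.8 and 12.1 (0.41, adjusted p = 0.111, and 0.028 as deposited). Of 6 genes for ubiquitin and its activating enzymes and of 12 for ubiquitin shuttles and p97 cofactors, 0 passed (before adjustment, 0 and 5 with p under 0.05, of which 3 were higher and 2 lower). Their medians were 0.09 and 0.11.

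The NRF1 pathway held a gene that passed. Nfe2l1, which encodes NRF1, was at 37.4, 40.2 and 31.8 scaled FPKM in KO and at 27.5, 26.4 and 26.2 in Control hearts. All KO values were above all Control values, with a log2 fold change of 0.43 (SE 0.12, limma adjusted p = 0.0759). It passed as deposited (0.0208), by limma-voom on reads (0.0447) and without Tfam KO replicate 3 (0.0456). It did not pass without Tfam KO replicate 1 or 2 (adjusted p = 0.14 and 0.22) or without Control replicate 1, 2 or 3 (0.165, 0.134 and 0.244). Nor did it pass without a filter on low values (0.108) or a variance trend (0.0944). With upper-quartile scaling, a pseudocount of 0.1 FPKM, at least 5 FPKM and a replicate block it was at 0.0642, 0.0796, 0.07 and 0.0556. Mafg, a small MAF protein that pairs with NRF1 and NRF2 on DNA, rose from 5.79 ± 0.603 to 8.96 ± 0.690 (SD, n = 3 each), with 8.17, 9.33 and 9.39 in KO and 6.06, 5.10 and 6.21 in Control hearts. Its log2 fold change was 0.55 (SE 0.12, adjusted p = 0.0299, and 0.0065 as deposited), the 1 call among 9 genes of the list and 0 lower. It passed without Tfam KO replicate 1 (adjusted p = 0.0376) but not when Tfam KO replicate 2, Tfam KO replicate 3 or any of Control replicates 1, 2 and 3 was left out (0.103, 0.0878, 0.0701, 0.0766 and 0.0827), nor without a filter on low values (0.0618). Of the 9, 7 had log2 fold changes above 0, with a median of 0.15.

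**Figure D4:**
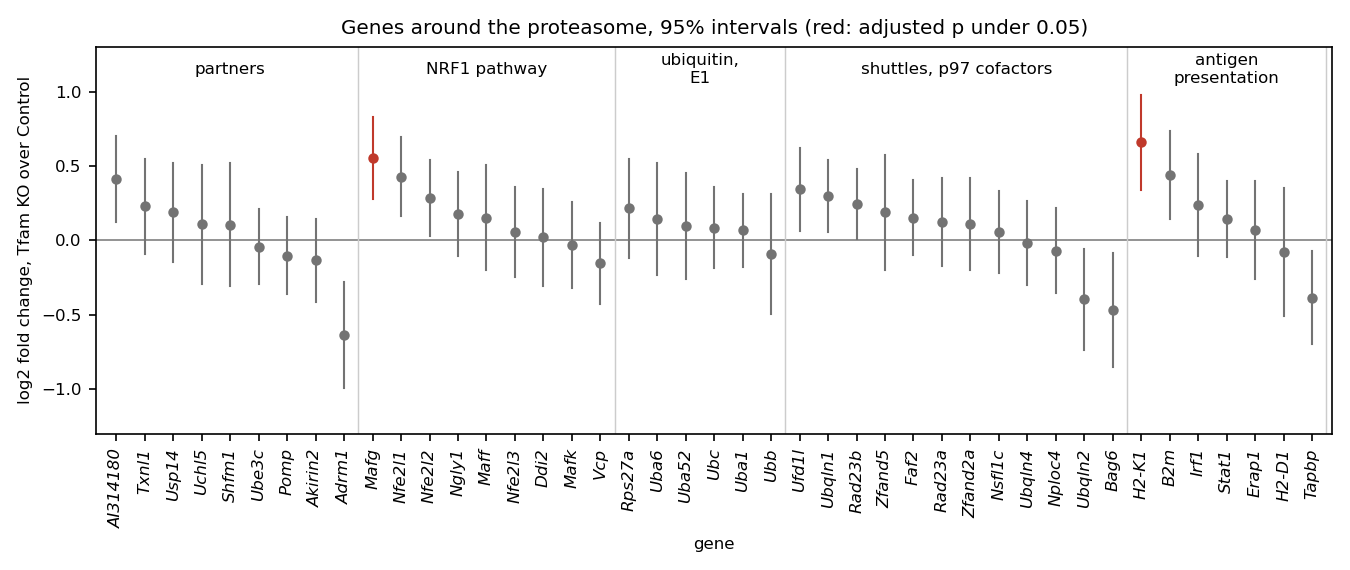
Log2 fold change (Tfam KO over Control, with size factors) of tested genes in 5 lists around the proteasome, with 95% intervals; red marks an adjusted p under 0.05. Mafg at 0.55 and H2-K1 at 0.66 are the red points, and Adrm1 at -0.64 is the lowest.

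Antigen presentation genes, the known context of immunoproteasomes, were mostly low. Of 10, 7 were tested, and 1, H2-K1, passed, against 0 lower (before adjustment, 2 were higher and 1 lower with p under 0.05). H2-K1, a class I heavy chain, rose from 1.65 ± 0.104 to 3.22 ± 0.624 scaled FPKM (log2 fold change 0.66, SE 0.14, limma adjusted p = 0.0277), with 3.82, 3.25 and 2.58 in KO and 1.67, 1.54 and 1.74 in Control hearts. By limma-voom on reads its adjusted p was 0.055, and without a filter on low values 0.0879. It passed without Tfam KO replicate 3 (0.0213) but not when Tfam KO replicate 1, Tfam KO replicate 2 or any of Control replicates 1, 2 and 3 was left out (0.0818, 0.0916, 0.075, 0.0595 and 0.0847). H2-D1, another class I heavy chain of the list, was at 2.64, 3.44 and 1.79 in KO and at 3.62, 2.32 and 2.48 in Control hearts. Its groups overlapped (log2 fold change -0.08, SE 0.19, limma adjusted p = 0.872). Class I heavy chains are near-identical, so reads of H2-K1 may be shared with its copies. The other 2 genes with p under 0.05 before adjustment were B2m and Tapbp, chosen after their values were seen. B2m, the class I light chain, was at 41.2, 34.9 and 46.4 in KO and at 28.0, 32.6 and 28.3 in Control hearts, with all KO values above all Controls (log2 fold change 0.44, SE 0.13, adjusted p = 0.0957, and 0.0177 as deposited). Tapbp, which helps to load peptides on class I molecules, was at 3.31, 3.23 and 2.59 in KO and at 5.05, 3.71 and 4.11 in Control hearts, with all KO values below all Controls (-0.38, SE 0.14, adjusted p = 0.168). Tap1 and Tap2, the peptide transporter genes next to Psmb8 and Psmb9, were under the filter.

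Promoter windows from 250 bases before to 50 after the start were listed for 41 of the 49 members. NRF1 binds the antioxidant response element, whose core was searched as TGACNNNGC on both strands. It was found in 6 of 41 member genes (14.6%), against 14.0% of all 27025 genes with a window. These 6 sites are shown because they lie before genes of the core, base, lid, an activator and a chaperone. The core is in capitals, with up to 10 bases on each side on the gene's strand, 5′ to 3′ (GRCm38.p6).
Psmb5, chr14:54618024-54618052, minus strand: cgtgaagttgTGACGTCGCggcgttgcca
Psmb6, chr11:70525338-70525366, plus strand: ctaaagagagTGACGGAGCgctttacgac
Psmd9, chr5:123228149-123228177, plus strand: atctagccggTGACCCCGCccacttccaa
Psmc6, chr14:45329587-45329615, plus strand: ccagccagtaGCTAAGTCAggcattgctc
Psme4, chr11:30771758-30771786, plus strand: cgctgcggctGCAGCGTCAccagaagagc
Psmd12, chr11:107479278-107479299, plus strand: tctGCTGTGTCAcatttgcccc
The last 3 hold the core on the opposite strand. The log2 fold changes of these 6 genes were 0.09, 0.23, -0.20, 0.32, 0.32 and 0.24, in the order printed.

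Another 6 motifs were searched the same way, and a match is a description of letters only. The ETS core CCGGAAG was in 15 of 41 member genes (36.6%, against 9.93% of all genes), Psmc2 among them. The interferon response core (GAAA, any 2 bases, then GAAA) was in 5 (12.2%, against 3.99%), namely Psmb3, Psmd4, Psmd9, Psme1 and Psmg4. The CCAAT box was in 15 (36.6%, against 41.1%), the extended box GATTGGC, which holds the CCAAT letters on the other strand, in 5 (12.2%, against 7.83%), and the E2F core GGCGGGAA in 2 (4.88%, against 2.52%). TGATGCAA, the form of the element that ATF4 binds, was in 1, Psmd13 (2.44%, against 1.03%).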

How the data were processed

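The deposited values were log2(FPKM + 1) per gene, with FPKM named by the files and base 2 read from the whole-read steps of low genes. Per the submitters' processing notes, CASAVA 1.8.2, TopHat2 2.0.7, HTSeq 0.5.3 and build mm9 were used. Their roles, the annotation and the strand setting are not given in the sources used here. From genes of known transcript length, library totals and whole reads were recovered for all 17876 genes above 0 in any library (tolerance 0.0001 of a read, wider for high counts), up to a whole factor per gene.

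Because the deposited scales differed, FPKM were scaled by size factors from medians of ratios. The test was limma 3.58.1 in R 4.3.3, run for genes averaging 1 FPKM or more on log2(scaled FPKM + 1), with the group as the only term, a variance trend and two-sided tests. Benjamini-Hochberg adjustment covered all 10807 tested genes, and adjusted p under 0.05 counted as a call. Fold changes refer to this log2 scale, which understates those of low genes. The fit was run on simulated reads with known changes. Those changes were larger than that of any member, so how often changes as small as the members' are called was not tested. Alternatives were the deposited scale, upper-quartile scaling, another pseudocount, other filters, no variance trend, limma-voom on the reads, a replicate block and each library left out.

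Members and gene lists were chosen with earlier results of these data known. Values in every library are given for members past the threshold under either scaling, for the extremes of each class, and for the tissue-restricted genes with their counterparts. Genes of the other lists are named when past the threshold, and Tfam, Nfe2l1 and Pomp always. Others were chosen after their values were seen.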

Additional observations from a re-analysis of the deposited data

How the results depend on the processing

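Depth limits Psmb8, Psmb9, Psmb11 and Psma8, with 0 to 17 reads a library. As deposited, 671 genes were higher and 125 lower, 1 proteasome member (Psmc2) was higher, and the median of the tested members was 0.39, against 0.28 for all genes. By limma-voom on reads 455 genes were lower, and without a filter 143. Without a filter Mafg, H2-K1 and Nkx2-5 lost their calls (adjusted p = 0.0618, 0.0879 and 0.127). The lower member was Psmb4 by limma-voom, with at least 5 FPKM, and with a replicate block (1 lower each, adjusted p = 0.0287 with the block). Adrm1 passed under the same 3 alternatives (adjusted p = 0.0237 with the block). With the block Mafg, H2-K1 and Nkx2-5 were past the threshold as well. No label ties same-numbered libraries. Their deviations from the group means correlated at 0.36, 0.07 and 0.16. The residual SD was 0.149 with the block and 0.175 in the main fit. Whether same-numbered libraries share a batch was not tested. Leaving out each library in turn gave 133 to 213 higher and 126 to 350 lower genes, 0 members in either direction, and member medians of 0.04 to 0.10. Without Control replicate 3 the counts were 133 and 126, without Control replicate 1 there were 153 lower genes, and without Tfam KO replicate 3 there were 158. In the leave-one-out fits variances were estimated from the 5 remaining libraries. Upper-quartile scaling, a pseudocount of 0.1 FPKM and no variance trend changed the call of 0 named genes. The cause of these differences was not tested.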
